A study of Homo sapiens with 18 samples.

Results

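The genes described here are the metallothioneins and zinc transporters MT1E, MT1F, MT1G, MT1M, MT1X, MT2A, MTF1, SLC30A1, SLC39A10 and SLC39A14. These 10 genes, of 58302 in the deposited count table, were chosen by symbol, through the Ensembl identifier of each row. RNA-seq was performed on U87MG, an established human glioblastoma cell line, in 2 control libraries and 2 libraries of cells given Erastin (10 μM, 72 h), a compound that blocks cystine uptake through the system Xc- transporter and is used to induce ferroptosis, an iron-dependent form of cell death. The control cells carry the label WT and no drug, and grew in the same medium. The replicates were described by the submitters as biological, and all 4 libraries came from this 1 line. The comparison asked how the transcriptome of glioblastoma cells changes in ferroptosis.

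Metallothioneins are small proteins, very rich in cysteine, that bind zinc, copper and cadmium through their thiol groups and can also react with oxidants. Free zinc activates the transcription factor MTF1, which binds metal response elements in the promoters of the metallothionein genes and of SLC30A1. Proteins of the SLC30 (ZnT) family move zinc out of the cytosol, to the outside of the cell or into organelles, and proteins of the SLC39 (ZIP) family move zinc into it.

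The 4 libraries held between 29412656 and 31513519 counts on genes, so 3 counts corresponded to 0.0955 to 0.100 CPM (counts scaled to the TMM-normalized library size). Of the 8 glioma and glial markers examined, 6 had at least 10 counts in every library (VIM, CD44, NES, GFAP, OLIG2 and CHI3L1), and S100B and SOX2 were near 0. The summed level of the 8 was 4182 and 4143 CPM in the control and 2714 and 2903 CPM in the Erastin libraries. GFAP went against the sum, with 46 and 41 counts in the control and 69 and 81 in the Erastin libraries. The 4 leukocyte markers summed to between 0.612 and 0.732 CPM and the 3 epithelial markers to at most 0.468 CPM in any library. The 3 neuronal markers summed to 52.6 and 57.4 CPM in the control and to 12.9 CPM in each Erastin library. Of the 3 endothelial markers, PECAM1 had 138 and 188 counts in the control and 31 and 33 in the Erastin libraries, VWF had 4 and 4 against 17 and 32, and CDH5 had at most 1 count. CD3E, CDH1 and KRT5 were at 0 in every library. The part of these shifts in the results was not tested, and in bulk RNA fewer cells of a type cannot be told apart from less RNA per cell.

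Of the 10 genes, 6 rose and 1 fell in Erastin-treated cells past a log2 fold change of 1, up or down, with an adjusted p under 0.05 (edgeR quasi-likelihood test, adjusted over all 16751 genes tested). MT2A, MT1E, MT1F, MT1G and MT1X, which are metal-binding metallothioneins, and SLC30A1, which exports zinc across the plasma membrane, were the 6 that rose. SLC39A10, a zinc importer of the plasma membrane, was the 1 that fell. Among all tested genes, 6.24% rose and 9.34% fell by the same rule, and the median log2 fold change of the 10 was 1.17, against 0.00 over all tested genes.

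At an adjusted p under 0.05 without a limit on the fold change, 7 of the 10 were higher and 1 was lower, beside 23.2% and 23.7% of all tested genes. MTF1 was the gene added by the looser rule, and MT1M and SLC39A14 did not pass it. In 8 of the 10 genes the lower Erastin library exceeded the higher control library, as in 36.7% of all tested genes, and in SLC39A10 the groups were separated in the other direction, as in 36.9%. All 10 genes passed the filter on low counts, but MT1G passed only through its Erastin libraries, so its place among the tested genes depended on the difference itself. The 10 genes were named with results of these data known, and the counts are a description of them.

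**Figure D1:**
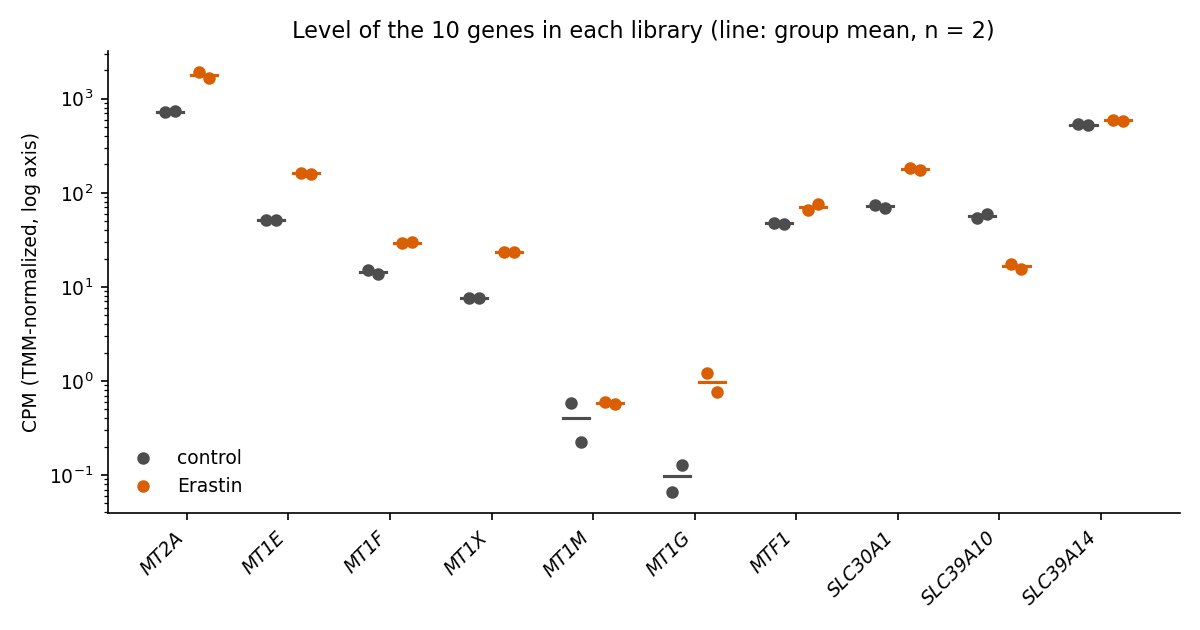
Level of the 10 genes in each library, in TMM-normalized CPM on a log axis; points are single libraries (control grey, Erastin orange) and horizontal lines are group means of 2 libraries. The control and Erastin points of MT1M overlap, SLC39A10 is lower in Erastin, and the other 8 genes are higher in both Erastin libraries.

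The metallothionein members lie on chromosome 16 (GRCh38) within 76.0 kb, from base 56608199 to base 56684196, and 5 of them are on the plus strand, with MT1G on the minus strand. Promoter sequences of MT2A and MT1X are shown because both genes rose and because MTF1 binds at their metal response elements. That of SLC30A1 is shown because it is a known MTF1 target outside the cluster. Each window holds 250 bases before and 50 bases after the transcription start in RefSeq (GRCh38.p14), written 5′ to 3′ on the strand of the gene, and capitals mark matches on either strand to the core of the metal response element, spelled TGCACNC or TGCGCNC. The windows are chr16:56608334-56608633 on the plus strand for MT2A, chr16:56682220-56682519 on the plus strand for MT1X and chr1:211579112-211579411 on the minus strand for SLC30A1.
MT2A: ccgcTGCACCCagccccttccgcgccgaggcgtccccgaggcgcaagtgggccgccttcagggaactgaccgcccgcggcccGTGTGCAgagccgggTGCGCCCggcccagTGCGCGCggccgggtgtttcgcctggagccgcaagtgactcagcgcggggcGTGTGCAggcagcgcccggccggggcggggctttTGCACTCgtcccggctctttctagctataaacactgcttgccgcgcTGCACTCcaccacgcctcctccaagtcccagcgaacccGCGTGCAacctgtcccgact
MT1X: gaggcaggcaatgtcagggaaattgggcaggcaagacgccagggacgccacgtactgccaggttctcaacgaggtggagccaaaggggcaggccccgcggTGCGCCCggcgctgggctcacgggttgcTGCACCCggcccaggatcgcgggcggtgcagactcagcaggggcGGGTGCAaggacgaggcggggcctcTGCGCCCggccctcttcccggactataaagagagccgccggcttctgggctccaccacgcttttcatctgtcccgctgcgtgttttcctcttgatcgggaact
SLC30A1: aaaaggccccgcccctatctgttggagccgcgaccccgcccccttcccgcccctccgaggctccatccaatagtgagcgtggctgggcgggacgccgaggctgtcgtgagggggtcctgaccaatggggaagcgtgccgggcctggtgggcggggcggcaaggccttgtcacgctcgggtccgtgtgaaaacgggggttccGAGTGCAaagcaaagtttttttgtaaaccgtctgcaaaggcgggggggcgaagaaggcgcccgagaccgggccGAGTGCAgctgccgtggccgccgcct

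The MT2A window held 8 matches to the core, and none of the matches overlapped another. They lay at 246, 168, 153, 139, 88, 54 and 8 bases before the RefSeq start and at base 30 after it. The deposited annotation begins MT2A further upstream, at base 56608199, so this whole window lies within the span of the gene as counted. Of 35116 promoter windows of the same length, 0.0199% held 8 or more. The MT1X window held 4 matches, at 150, 122, 78 and 53 bases before the start, a number reached by 0.601% of windows. In SLC30A1 there were 2 matches, at 49 bases before the RefSeq start and at base 24 after it, and 8.60% of windows held at least as many. The deposited annotation begins SLC30A1 at base 211578742 on the minus strand, so this whole window lies upstream of the gene as counted. The RefSeq table used here matched 5 of the 10 genes, and MT1E, MT1F, MT1G, MT1M and SLC39A14 were not among them.

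The window of MTF1 held no match, and the 2 windows of SLC39A10, at its 2 starts in RefSeq, held 0 and 1. The deposited annotation begins SLC39A10 further upstream, at base 195575977, and that start was not searched. The single match of SLC39A10 lay at base 33 after the start of its second window, and 29.6% of all windows held at least 1 match. The core of the antioxidant response element, TGACNNNGC on either strand, which is the site bound by NRF2 with small MAF proteins, was searched after the sequences had been seen. It occurred in 13.3% of all windows and once in each of the windows of MT2A, MT1X and SLC30A1, at 104, 243 and 88 bases before the start. A match is a string of letters in the window and was not tested as a binding site.

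**Figure D2:**
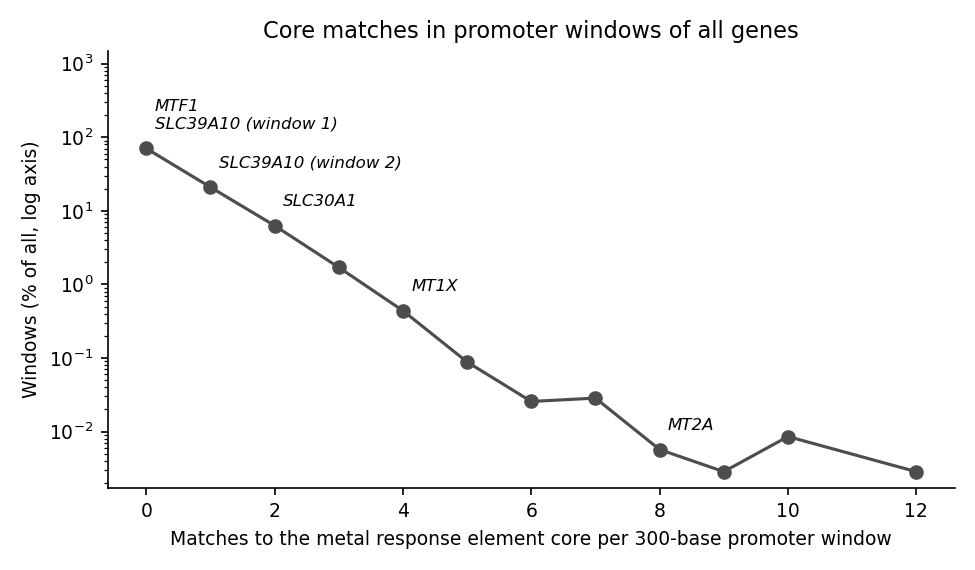
Share of the 35116 RefSeq promoter windows (percent, log axis) that hold each number of matches to the metal response element core, with the windows of MT2A, MT1X, SLC30A1, SLC39A10 and MTF1 named at their number. MT2A with 8 matches and MT1X with 4 lie far to the right of most windows, while MTF1 and the first window of SLC39A10 have none.

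MT2A (ENSG00000125148), the main metallothionein of most human tissues, was by far the most abundant member. Its level was 716 and 735 CPM in the control libraries and 1935 and 1658 CPM in the Erastin libraries, that is 725 ± 13.8 and 1797 ± 196 CPM (mean ± SD, n = 2 each). Both Erastin libraries were above both controls, and the first was the higher of the pair. MT2A rose by a log2 fold change of 1.31 (SE 0.0778, 2.48-fold, adjusted p = 9.29e-08 by edgeR), and leaving out any single library gave 1.19 to 1.42. By its mean count level it ranked 57 of the 16751 tested genes.

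MT1E (ENSG00000169715, chromosome 16, bases 56625475 to 56627112) was the most abundant of the MT1 isoforms. It was at 51.2 and 51.9 CPM in the control and 163 and 158 CPM in the Erastin libraries, from 1564 and 1612 counts against 4888 and 4972. The libraries of each group were close together and the groups did not overlap. The log2 fold change was 1.64 (SE 0.0697, 3.12-fold, edgeR adjusted p = 5.57e-09).

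MT1X (ENSG00000187193, bases 56682424 to 56684196 of chromosome 16) rose about as much as MT1E, from a lower level. It was at 7.65 and 7.66 CPM in the control libraries and at 23.2 and 23.6 CPM after Erastin. The log2 fold change was 1.61 (SE 0.129, 3.05-fold, adjusted p = 1.13e-06 by edgeR). The exons of MT1X share 321 bases, 18.1% of their length, with ENSG00000259827, a gene on the same strand that was listed at 0 in every library, and reads falling on both genes were not counted by the authors.

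MT1F (ENSG00000198417, bases 56657694 to 56660698 of chromosome 16) was at 14.9 and 13.7 CPM in the control and 29.1 and 29.8 CPM in the Erastin libraries. The groups did not overlap, and the log2 fold change was 1.04 (SE 0.115, 2.05-fold, edgeR adjusted p = 1.60e-05). It lay just inside the fold threshold, and without control replicate 2 it was 0.97 and just outside.

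MT1G (ENSG00000125144, bases 56666731 to 56668065 of chromosome 16) was barely detected in control cells, with 2 and 4 counts, and had 36 and 24 counts in the Erastin libraries. Its level moved from 0.0654 and 0.129 CPM to 1.20 and 0.764 CPM. The ratio of the summed counts was 10.1 after normalization. Its 95% interval was 4.36 to 28.5 with each counted read taken as independent, which can be too narrow because both reads of a pair were counted. By edgeR the log2 fold change was 3.28 (SE 0.736, adjusted p = 0.00313), and without Erastin replicate 1 the adjusted p was 0.0639 at a log2 fold change of 2.92.

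MT1M (ENSG00000205364, bases 56632233 to 56633986 of chromosome 16) had 18 and 7 counts in the control and 18 and 18 in the Erastin libraries, so the groups overlapped. The ratio of the summed counts was 1.45, and the edgeR adjusted p was 0.553. The 95% interval of the ratio, on the same basis as for MT1G, was 0.845 to 2.52. A rise of 2-fold was therefore within the counting error at this depth.

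The 6 metallothionein members together took 790 and 809 CPM in the control and 2153 and 1871 CPM in the Erastin libraries. The sum was thus 799 ± 13.2 and 2012 ± 199 CPM (mean ± SD, n = 2 each), a ratio of 2.52. MT2A supplied 90.6% (95% Wilson interval 90.2 to 90.9) and 90.9% (90.5 to 91.3) of the summed counts in the control libraries, and 89.9% (89.7 to 90.1) and 88.6% (88.4 to 88.9) in the Erastin libraries. Its share was lower in both Erastin libraries than in either control, and the nearest pair of libraries across the groups lay closer together than the 2 Erastin libraries did. MT1E supplied 6.47% and 6.42% in the control and 7.59% and 8.46% in the Erastin libraries. These shares are given as a description, with no test.

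Between genes, levels were compared per kilobase of exon. In control cells MT2A was at 551 and 566 CPM per kilobase, followed by SLC39A14 at 76.9 and 75.1 and by MT1E at 48.6 and 49.3. SLC30A1, at 13.7 and 12.7 CPM per kilobase, came next, and below it SLC39A10 (7.72 and 8.61) and MT1F (7.91 and 7.24) overlapped. MTF1 (6.0 and 5.81) and MT1X (4.32 in each library) were lower, and MT1M and MT1G were below 1.

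In Erastin-treated cells the order differed at several places. MT2A stayed first at 1490 and 1277 CPM per kilobase, and MT1E (155 and 150) now stood above SLC39A14 (85.1 and 84.6). SLC30A1 was at 33.3 and 32.0, MT1F at 15.4 and 15.8 and MT1X at 13.1 and 13.3, without overlap between neighbours. MTF1 reached 8.21 and 9.39, and SLC39A10, at 2.56 and 2.25 CPM per kilobase, stood below all of these and above MT1G (1.60 and 1.02) and MT1M (0.639 and 0.608).

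Metallothionein genes share stretches of sequence, which can cost reads that match several places. Of the 31-base words in the longest annotated transcript, 34.1% in MT1E, 40.5% in MT1M and 21.6% in MT1G also occurred elsewhere on the chromosomes, compared with 13.4% in MT2A, 5.83% in MT1X and 5.18% in MT1F. Words of 100 bases had no second place in any of these except MT1E, with 4.33%. Of the 31-base words of MT1E, 21.9% occurred within the genomic span of MT1M, introns included. The spans of MT1JP, MT1G and MT1L held 16.2%, 8.24% and 5.87% of them. SLC30A1, SLC39A10 and SLC39A14 had at most 0.0648% of their 31-base words elsewhere on the chromosomes, and MTF1 3.20%. The length of the reads was not given in the sources used here, so the loss was not estimated, and MT1E and MT1M counts are the most uncertain.

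**Figure D3:**
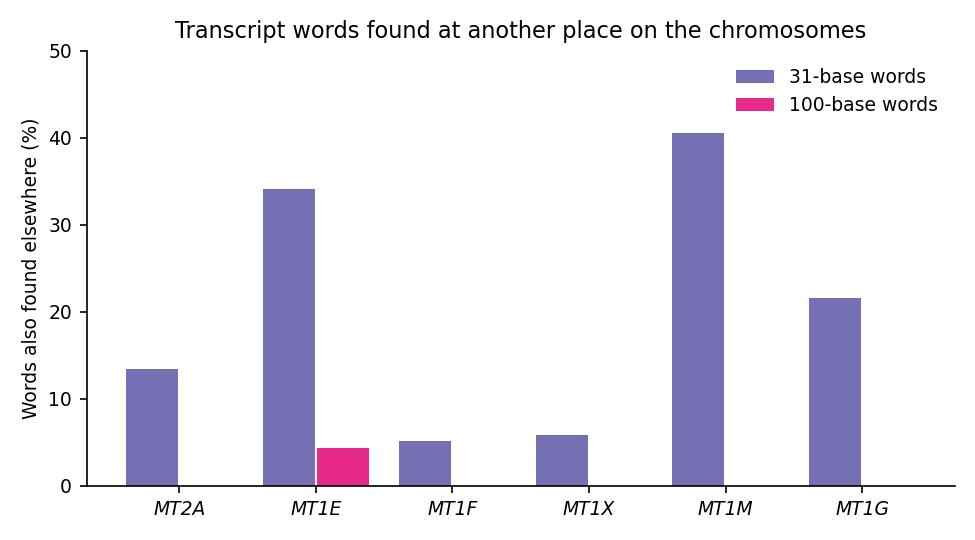
Percent of words of 31 bases and of 100 bases in the longest transcript of each metallothionein that also occur at another place on the chromosomes. MT1M and MT1E have the most repeated 31-base words, and MT1E alone has repeated 100-base words.

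Of 13 other metallothionein genes and pseudogenes examined, only MT1L had enough counts to be tested, and 8 were listed at 0 in every library, MT3 (the brain-enriched form), MT1A and MT4 among them. MT1L (ENSG00000260549), a transcribed pseudogene of the same cluster, had 1028 and 1196 counts in the control and 867 and 831 in the Erastin libraries. It was the only tested metallothionein gene that was lower, with a log2 fold change of −0.38 (SE 0.109, edgeR adjusted p = 0.0130), which did not reach the fold threshold. Without Erastin replicate 2 its adjusted p was 0.0949, and without control replicate 2 it was 0.0722. The ratio of MT1E to MT1L counts, not scaled by length, was 1.52 and 1.35 in the control and 5.64 and 5.98 in the Erastin libraries. Per kilobase of exon, MT1L was above MT1E in the control libraries, at 81.8 and 93.7 against 48.6 and 49.3 CPM. In the Erastin libraries MT1L was below MT1E, at 70.5 and 64.3 against 155 and 150 CPM per kilobase. The remaining 4, MT1H, MT1JP, MT1DP and MT1P3, had at most 9 counts in any library.

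MTF1 (ENSG00000188786, chromosome 1, bases 37809567 to 37859620, minus strand), the zinc-sensing activator of the metallothionein genes, was higher in Erastin-treated cells by less than the fold threshold. It was at 48.1 and 46.6 CPM in the control and 65.9 and 75.3 CPM in the Erastin libraries. The Erastin libraries were both higher and lay further apart than the controls. The log2 fold change was 0.58 (SE 0.0869, 1.49-fold, edgeR adjusted p = 1.91e-04).

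Of 6 other factors known to act on metallothionein genes, 4 were higher and 1 lower at an adjusted p under 0.05. Of all tested genes, 23.2% were higher and 23.7% lower by that rule. The median log2 fold change of the 6 factors was 0.27. None reached the fold threshold in edgeR, at an unadjusted p under 0.05 either, or in DESeq2, where the count was 0 as well. NFE2L2, which encodes the oxidant-responsive factor NRF2, was at 64.8 and 75.5 CPM in the control and 113 and 121 CPM in the Erastin libraries, a log2 fold change of 0.74 (SE 0.0845, edgeR adjusted p = 2.16e-05). NR3C1, the glucocorticoid receptor, was at 82.4 and 87.6 CPM in the control and at 114 and 113 CPM after Erastin (log2 fold change 0.41, SE 0.0699, edgeR adjusted p = 4.52e-04). SP1 was the lower one, with a log2 fold change of −0.30 (edgeR adjusted p = 0.00720).

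SLC30A1 (ENSG00000170385, chromosome 1, bases 211571568 to 211578742, minus strand), which encodes the zinc exporter ZnT1 of the plasma membrane, rose by a fold close to that of MT2A. It was at 74.8 and 69.6 CPM in the control libraries and at 182 and 175 CPM in the Erastin libraries. The groups were 72.2 ± 3.65 and 179 ± 4.89 CPM (mean ± SD, n = 2 each) and did not overlap. The log2 fold change was 1.31 (SE 0.0714, 2.48-fold, edgeR adjusted p = 4.63e-08), and it was 1.25 to 1.36 when any single library was left out.

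Of the 10 other exporter genes examined, 7 were tested, and their median log2 fold change was 0.27. None rose past the fold threshold by edgeR, at an unadjusted p under 0.05 either, or by DESeq2. SLC30A6, SLC30A9 and SLC30A7 were higher at an adjusted p under 0.05, as were 23.2% of all tested genes. SLC30A6, which forms a transporter with SLC30A5 in the early secretory pathway, was at 49.9 and 49.6 CPM in the control and 80.3 and 82.4 CPM in the Erastin libraries, a log2 fold change of 0.71 (SE 0.0744, edgeR adjusted p = 1.06e-05).

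SLC30A10, which mainly exports manganese, was the only other exporter gene that fell past the threshold. It had 53 and 69 counts in the control and 25 in each Erastin library, and its log2 fold change was −1.27 (SE 0.394, edgeR adjusted p = 0.0192). DESeq2 gave an adjusted p of 0.0697, so this call depended on the tool. SLC30A2 and SLC30A8, the exporter of insulin granules, were listed at 0 in every library.

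SLC39A10 (ENSG00000196950, chromosome 2, bases 195575977 to 195737702, plus strand), which encodes the importer ZIP10, moved in the opposite direction from SLC30A1. It was at 53.4 and 59.5 CPM in the control and at 17.7 and 15.6 CPM in the Erastin libraries. Both Erastin libraries were far below both controls, with group values of 56.4 ± 4.35 and 16.7 ± 1.5 CPM (mean ± SD, n = 2 each). The log2 fold change was −1.76 (SE 0.109, 3.39-fold lower, edgeR adjusted p = 1.24e-07), and leaving out any single library gave −1.86 to −1.67. Of the tested genes, 4.55% had a lower log2 fold change.

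SLC39A14 (ENSG00000104635, chromosome 8, bases 22367249 to 22434129, plus strand), which encodes ZIP14, an importer of zinc that also carries non-transferrin-bound iron and manganese, was the most abundant of the 3 transporters. It was at 534 and 521 CPM in the control and at 591 and 587 CPM in the Erastin libraries. The groups did not overlap, but the difference was small, with a log2 fold change of 0.16 (SE 0.0613, 1.12-fold). The edgeR adjusted p was 0.0507 and that of DESeq2 was 0.0329, on either side of 0.05. With library totals in place of TMM the edgeR adjusted p was 0.0115, and without control replicate 1 it was 0.0298. It was never near the fold threshold, at 0.13 to 0.17 when a library was left out.

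Of the 12 other importer genes examined, 8 were tested and none reached the fold threshold in either direction by edgeR, at an unadjusted p under 0.05 either, or by DESeq2. Their median log2 fold change was −0.02. At an adjusted p under 0.05, 2 were higher and 2 lower, beside 23.2% and 23.7% of all tested genes. SLC39A11 was at 34.1 and 30.7 CPM in the control and 47.0 and 42.8 CPM in the Erastin libraries (log2 fold change 0.47, SE 0.0999, edgeR adjusted p = 0.00221). SLC39A13, an importer that releases zinc from vesicles of the secretory pathway, was at 116 and 115 CPM in the control and 161 and 148 CPM in the Erastin libraries (log2 fold change 0.42, SE 0.0701, edgeR adjusted p = 3.96e-04).

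SLC39A8 (ZIP8), the nearest relative of SLC39A14, was lower, with a log2 fold change of −0.31 (edgeR adjusted p = 0.0254), and SLC39A9 was lower by −0.28 (edgeR adjusted p = 0.00656). SLC39A7 had 2 counts in 1 control library and none elsewhere, and 97.4% of its 31-base words also occurred on other scaffolds of the genome file, so its level cannot be read from these counts.

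**Figure D4:**
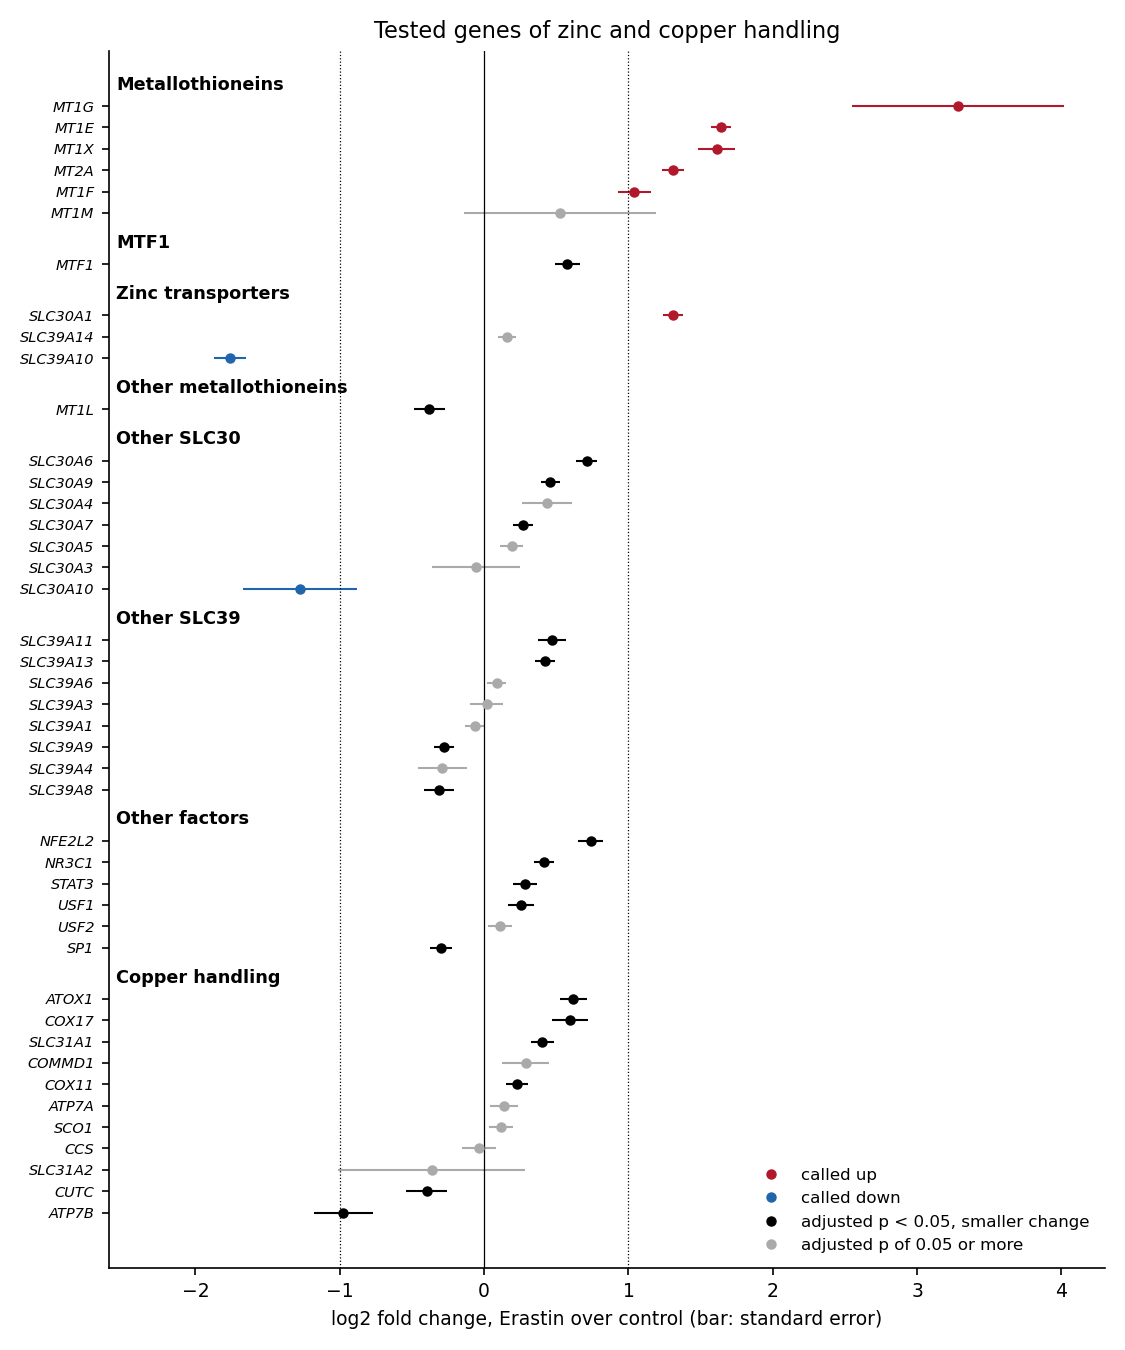
Log2 fold change (Erastin over control) of every tested gene of the zinc and copper lists, with bars of 1 standard error and dotted lines at −1 and 1. Red and blue points passed the fold and adjusted p thresholds, black points passed the adjusted p alone, and grey points passed neither. MT1G, MT1E, MT1X, MT2A, MT1F and SLC30A1 are the 6 red points, and SLC39A10 and SLC30A10 the 2 blue ones.

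The genes whose levels moved most like those of MT2A over the 4 libraries were HSPA4L, TMEM87A and SNAPC1, by the distance between log2 CPM values centred on the control mean. The search covered the 9500 genes whose mean level was 10 CPM or more, with the 10 genes themselves left out. HSPA4L, a chaperone of the HSP110 family, was at 22.0 and 22.8 CPM in the control and 56.5 and 51.9 CPM in the Erastin libraries, at a distance of 0.0856. TMEM87A lay at 0.0947 with a log2 fold change of 1.28, and SNAPC1, a subunit of a complex needed to transcribe small nuclear RNA genes, at 0.0995 with 1.36. With 4 libraries in 2 groups, a small distance reflects a like fold change and a like spread between replicates, and the likeness is a description.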

How the data were processed

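RNA was sequenced in 2 control and 2 Erastin libraries of U87MG cells. The authors deposited raw counts of reads per gene, written per the file header by featureCounts 2.0.3 with the Ensembl release 90 annotation of GRCh38. Counting was unstranded, both reads of a pair were counted, and reads matching several places or genes were left out, which bears on the stretches that metallothionein genes share. The submitters' processing notes name HISAT2 2.1.0 for alignment, featureCounts 2.0.4 and DESeq2 1.18.1, and the study's methods name htseq-count. The deposited values were tested for decimals of estimated counts, and rounding changed none.

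The test was run with edgeR 4.0.16 in R 4.3.3. Of the genes, 16751 passed filterByExpr at a minimum count of 10, TMM factors scaled the libraries, and a two-sided quasi-likelihood test compared the groups without a replicate block. P-values were adjusted by Benjamini-Hochberg over all tested genes. The thresholds were a log2 fold change of 1 in size and an adjusted p under 0.05, after the study. CPM used the TMM-scaled totals of the tested genes (29385564 to 31485072 counts before scaling), and levels per kilobase used the deposited exon length. Each standard error was the fold change divided by the root of its F statistic. Ratios of low counts and shares had 95% intervals that take each counted read as an independent draw. They cover counting error at most, since reads without molecular identifiers are not independent molecules. Both reads of a pair were counted, so the intervals can be too narrow. The test was checked on simulated data, where 172 of 200 genes changed 4-fold were recovered, with 1 false call. Full recovery, 145 of 145, was reached among the changed genes with a mean count of at least 100. Each simulated gene took its variation between replicates from the trend over all genes, with none of its own. False calls in the real data can therefore be more frequent than in this check.

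The 10 genes and the lists of other metallothioneins, SLC30 and SLC39 transporters, factors and copper genes were chosen with earlier results of these data known. All 10 genes are named, and of each list those past both thresholds and the 2 largest changes at an adjusted p under 0.05. Other genes named as lower or higher (SP1, SLC30A7, SLC39A8, SLC39A9) and those at or near 0 were added after their values were seen. Promoter windows were from RefSeq (GRCh38.p14), and 31-base and 100-base words of GENCODE release 44 transcripts were sought on 25 chromosomes of its genome. Protein sequences and the ChIP-seq and HiChIP samples of the series (18 samples in all) were not analysed here. There were 11 alternatives: DESeq2 1.42.0, its size factors, library totals, no filter, a stricter filter, counts divided by 2, a replicate block, and leaving out each library.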

Additional observations from a re-analysis of the deposited data

How the results depend on the processing

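Across 11 alternatives, 110 of 118 recomputed log2 fold changes of the 10 genes and MT1L kept their direction and their side of both thresholds. The 10 genes gave 6 genes called up and 1 called down under DESeq2, under both other scalings, without a filter, with counts divided by 2 and with the replicate block. They gave 5 up and 1 down with at least 10 counts required in every library, where MT1G and MT1M were not tested, and 5 to 6 up and 1 down when a library was left out. MT1M reversed to a log2 fold change of −0.0116 without control replicate 2 (leaving out other libraries gave up to 1.36). MT1F fell to 0.97 without control replicate 2, and the adjusted p of MT1G rose to 0.0639 without Erastin replicate 1. MT1L had an adjusted p of 0.0722 without control replicate 2 and of 0.0949 without Erastin replicate 2. SLC39A14, at 0.0507, came under 0.05 with library totals (0.0115), DESeq2 (0.0329) and without control replicate 1 (0.0298). The cause of these shifts was not tested. The number of other zinc exporters called down, 1, was 0 under DESeq2 and ranged from 0 to 1 with a library left out, being 0 without control replicate 2. The number of copper genes called down, 0, ranged from 0 to 1, being 1 without Erastin replicate 2.

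The replicate numbers do not say that same-numbered libraries were prepared together, and the deviations of same-numbered libraries correlated at 0.04. With the replicate block, 1039 genes were called up and 1568 down among all tested genes, against 1046 and 1564 without it, and it changed no call of the 10 genes. Replicates of a group differed beyond counting noise, with a chi-square per degree of freedom of 11.1 in the control and 9.10 in the Erastin libraries. Depth limits MT1G and MT1M, which had at most 36 counts in any library.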

Other observations

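Copper, like zinc, is bound by metallothioneins, and 11 of the 12 copper-handling genes examined were tested. Their median log2 fold change was 0.14. At an adjusted p under 0.05, 4 were higher and 2 lower, beside 23.2% and 23.7% of all tested genes. By edgeR none passed the fold threshold as well, at an unadjusted p under 0.05 either, and DESeq2 also called 0. ATP7B, which encodes a copper-exporting ATPase, came nearest to the threshold. It was at 7.46 and 7.60 CPM in the control and 3.54 and 4.11 CPM in the Erastin libraries, so both Erastin libraries were lower, with a log2 fold change of −0.98 (SE 0.203, edgeR adjusted p = 0.00193).

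ATOX1, the chaperone that hands copper to ATP7A and ATP7B, was at 31 and 31.3 CPM in the control and 50.6 and 45 CPM in the Erastin libraries, a log2 fold change of 0.62 (SE 0.0967, edgeR adjusted p = 2.48e-04). SCO2 was listed at 0 in every library. Of its deposited exon length, 71.7% is shared with the entry ENSG00000130489 and 41.7% with ENSG00000272821. Reads matching several genes were left out, so the level of SCO2 cannot be read from these counts.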
